A study of Mus musculus with 12 samples.

Results

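The transcripts of 10 secreted saliva proteins were examined in the mouse submandibular gland (SMG): Mucl2, Prol1, Pip, Car6, Bpifa2, Dcpp1, Dcpp2, Dcpp3, Smgc and Amy1. They were taken by name from a table of 56065 genes, as products that acinar cells of the major salivary glands are known to make. All 10 passed the filter on low counts, among 17893 genes tested. The 12 libraries came from SMGs of mice aged 8 weeks, in 4 groups of 3: females and males of C57BL/6J, called wild type, and females and males of C57BL/6J-Pou2f3-/-, called knockout. The knockout is global, so that every tissue of these mice lacks the transcription factor that defines tuft cells (TCs), and the control strain carries no allele of its own. Each library was stranded total RNA after removal of ribosomal RNA by the methods, although the labels name the molecule as polyadenylated RNA. Total estimated counts ranged from 47031920 to 67881910 per library.

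The SMG of the mouse holds acini that secrete most of the saliva and granular convoluted tubules, a duct segment that is larger in males under androgen. Acinar cells devote a large part of their mRNA to a few secreted proteins. The proteins studied here include mucins and mucin-like glycoproteins that coat and lubricate, enzymes that act in saliva, and carrier or antibacterial proteins. Some are textbook products of the SMG, and others are better known from the parotid gland (Amy1, Bpifa2) or from the serous demilunes of the sublingual gland (the Dcpp genes), which lie beside the SMG in the neck.

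Pou2f3 itself could not check the genotype labels. No library held more than 10 counts of it: wild-type females had 1, 0 and 2, wild-type males 1, 10 and 0, knockout males 0, 3 and 1, and the knockout females none. All of 15 genes of salivary acinar cells passed the filter, with summed levels of 1196 to 4598 CPM (counts scaled to 1 library size by TMM) over the libraries. They mark acini of any major salivary gland and cannot tell the SMG from the parotid or sublingual gland; 15 genes of the granular convoluted tubules, a segment of the rodent SMG, summed to at least 4931 CPM in each library. Rn7s1, the RNA of the signal recognition particle, took 27.0 to 34.5% of counts in females of the wild type and 31.3 to 39.1% in those of the knockout, against 11.8 to 21.3% and 20.5 to 26.9% in the males. The genes that vary most in what follows did so through a few libraries: knockout female 3, wild-type male 3 and knockout male 2 stood apart from their groups in Dcpp, Bpifa2 or Amy1, and the results that rest on them are given with and without them. The 31-base words of the Prol1, Pip and Car6 transcripts occur in no other gene of the Gencode M39 annotation, and Mucl2 shares 2.85% of its words with Mucl1.

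The Dcpp genes are 3 neighbouring copies on chromosome 17, and their sequences bear on every Dcpp count below. In GRCm39 coordinates Dcpp1 lies at chr17:24099850-24101827, the Dcpp2 gene model at chr17:24099850-24119762, which spans Dcpp1, and Dcpp3 at chr17:24136432-24138415, all on the plus strand. Their transcripts are 617, 613 and 610 bases long, with an identity of 94.4 to 96.2% between pairs, and 57.1% of the 31-base words of Dcpp1, 56.2% of those of Dcpp2 and 56.1% of those of Dcpp3 also occur in another gene. The first 90 coding bases show how alike they are. Capitals mark the 2 positions that are not the same in all copies.
Dcpp1: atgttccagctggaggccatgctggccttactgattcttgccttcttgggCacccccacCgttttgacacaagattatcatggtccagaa
Dcpp2: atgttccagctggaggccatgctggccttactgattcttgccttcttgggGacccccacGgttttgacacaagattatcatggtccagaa
Dcpp3: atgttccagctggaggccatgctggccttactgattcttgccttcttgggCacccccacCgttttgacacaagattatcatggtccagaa
Over this stretch Dcpp1 and Dcpp3 cannot be told apart, so the split of reads between copies is uncertain and their sum is firmer.

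The promoters of the Dcpp genes, Pip, Mucl2, Prol1, Car6 and Smgc are shown next. The 80 bases before the annotated start of a chosen transcript of each gene are printed 5′ to 3′ on the gene's own strand, in GRCm39. For Dcpp2 this start, chr17:24117695, lies inside the gene model given above. Capitals mark the letters TATAA where they occur within 50 bases before the start, a search made on the gene's strand only and chosen after the sequences were read. The letters occur there in 4 of the 10 genes, and in 5.63% of 21770 protein-coding promoters. The 4 are Pip and the Dcpp genes, whose promoters are near copies of each other and hence not separate cases. A match is a description of letters, not of a bound site.
Dcpp1, chr17:24099770-24099849, plus strand: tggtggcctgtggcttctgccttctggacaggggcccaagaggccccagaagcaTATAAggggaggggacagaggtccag
Dcpp2, chr17:24117615-24117694, plus strand: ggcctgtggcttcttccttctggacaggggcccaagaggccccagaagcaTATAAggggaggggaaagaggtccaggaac
Dcpp3, chr17:24136352-24136431, plus strand: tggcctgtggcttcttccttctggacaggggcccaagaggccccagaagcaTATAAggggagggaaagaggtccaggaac
Pip, chr6:41824389-41824468, plus strand: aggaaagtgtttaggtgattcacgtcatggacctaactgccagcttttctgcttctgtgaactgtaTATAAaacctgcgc
Mucl2, chr15:103929579-103929658, minus strand: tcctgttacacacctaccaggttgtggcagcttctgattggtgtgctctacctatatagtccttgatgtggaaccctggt
Prol1, chr5:88465091-88465170, plus strand: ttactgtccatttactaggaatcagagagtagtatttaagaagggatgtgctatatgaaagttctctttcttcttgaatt
Car6, chr4:150285790-150285869, minus strand: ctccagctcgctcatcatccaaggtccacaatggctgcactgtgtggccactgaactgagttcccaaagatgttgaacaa
Smgc and Muc19, chr15:91722388-91722467, plus strand: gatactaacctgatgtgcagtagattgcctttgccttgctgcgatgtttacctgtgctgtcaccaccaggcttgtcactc
The Dcpp promoters have an identity of 97.0 to 97.7% between pairs over 300 bases, from 250 before to 50 after the start. Smgc (chr15:91722468-91745636) and the mucin gene Muc19 (chr15:91722468-91832447) start at the same base in the annotation, so that 1 promoter is printed for both.

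Mucl2, Prol1, Car6 and Pip were abundant in every library. Mucl2, a mucin-like glycoprotein gene at chr15:103926121-103929578, ranked 2 among all genes by its mean share of counts, Prol1 (chr5:88465171-88476673), also known as Muc10 and the classical SMG mucin of the mouse, ranked 5, Car6 (chr4:150271472-150285789), the secreted carbonic anhydrase, ranked 10, and Pip (chr6:41824469-41828999), the prolactin-induced protein, ranked 17. Together these genes made up 96.4 to 100.0% of the counts of the 10 genes in each library. The 10 genes summed to 33.5% ± 4.74 (SD, n = 3) of all counts in females and 15.0% ± 1.94 in males of the wild type, and to 24.7% ± 1.01 in females and 11.5% ± 3.4 in males of the knockout. Over protein-coding genes alone, the sums were 55.1% ± 3.78 in females and 19.8% ± 2.67 in males of the wild type, and 45.4% ± 1.71 and 16.8% ± 3.66 in the knockout, so that most protein-coding counts of the wild-type females fell on these 10 genes.

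Mucl2 took 24.9, 26.5 and 33.6% of all counts in the wild-type females and 19.4, 20.1 and 21.0% in the knockout females. In males it took 13.3, 13.0 and 10.2% in wild type and 12.9, 7.80 and 7.63% in knockout. Every female library was above every male one, the knockout females were all below the wild-type females, and the male genotypes overlapped. How many of all genes were apart between groups was not counted, here and below, so being apart is not shown to be particular to these genes. In the authors' normalized counts, Mucl2 overlapped between the female genotypes, at 24.4 to 34.9% in wild type and 19.1 to 27.6% in knockout.

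Prol1 took 3.00, 2.60 and 2.66% of counts in the wild-type females, 2.50, 2.76 and 2.79% in the knockout females. Males had 1.24, 1.37 and 0.95% in wild type and 1.09, 0.789 and 0.845% in knockout. The sexes were apart and the genotypes overlapped in both sexes. Car6 took 1.51, 1.61 and 1.60% in the wild-type females, 1.46, 0.939 and 1.37% in the knockout females. Males had 1.15, 1.01 and 0.863% in wild type and 0.909, 0.518 and 0.521% in knockout. Its shares were apart between the sexes within each genotype. Between the female genotypes they were apart in all counts, but overlapped when Rn7s1 or the 20 most abundant other genes were left out of the total, over protein-coding genes (2.45 to 2.75% in wild type, 1.80 to 2.65% in knockout) and in the authors' normalized counts.

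Pip stood closer between the sexes. It took 0.592, 0.601 and 0.766% of counts in the wild-type females, 0.449, 0.448 and 0.476% in the knockout females. Males had 0.593, 0.516 and 0.395% in wild type and 0.508, 0.329 and 0.336% in knockout. As a share of all counts, Pip overlapped between the sexes in both genotypes and was apart between the female genotypes. The female genotypes overlapped in the authors' normalized counts, at 0.641 to 1.2% in wild type and 0.459 to 0.648% in knockout. With Rn7s1 left out of the total, the sexes were apart. Females had 0.901 to 1.05% and males 0.447 to 0.72% in wild type, against 0.692 to 0.735% and 0.45 to 0.639% in knockout. The sexes were also apart in both genotypes over protein-coding genes and as TMM-scaled CPM. In the authors' normalized counts, and without the most abundant other genes, the sexes were apart in wild type and overlapped in knockout.

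**Figure D1:**
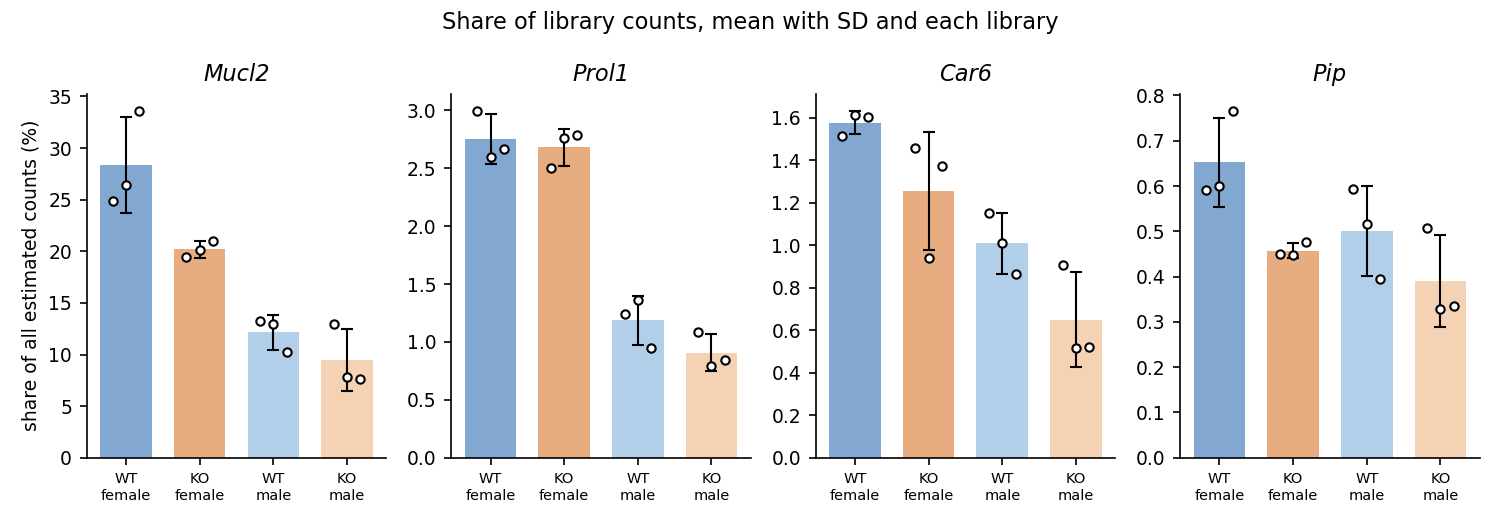
Share of all estimated counts (%, linear axes from 0, a scale of its own in each panel) for Mucl2, Prol1, Car6 and Pip in the 4 groups; bars are means, whiskers the SD and open points the 3 libraries. Mucl2 stands at 28.3% of counts in wild-type females and at 9.45% in knockout males, and the female bars of Prol1, at 2.75 and 2.68%, lie above both male bars.

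A share depends on what the other genes of a library take, so levels were also compared after TMM scaling, which sets the bulk of genes level between libraries. The TMM factors ran from 0.625 to 0.759 in females of the wild type and 0.902 to 1.03 in those of the knockout, and from 1.04 to 1.45 and 1.11 to 1.25 in the males, and hence moved the female groups further apart. On this scale Mucl2 reached 417750 ± 107823 CPM (SD, n = 3) in females of the wild type, 207557 ± 17825 in those of the knockout, and 97269 ± 25513 and 79445 ± 20813 in wild-type and knockout males. Prol1 reached 40060 ± 2265, 27612 ± 3206, 9567 ± 3206 and 7667 ± 1003 CPM in the same order of groups. Car6 stood at 23078 ± 2896, 12779 ± 2058, 8008 ± 1700 and 5455 ± 1582 CPM, and Pip at 9621 ± 2333, 4702 ± 316, 3985 ± 1037 and 3294 ± 679 CPM.

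By mean CPM on the TMM scale the order of groups was the same for these genes: wild-type females, knockout females, wild-type males, knockout males. By share of all counts Pip was higher in wild-type males (0.501%) than in knockout females (0.458%), and as shares of the authors' normalized counts Mucl2, Prol1 and Pip were slightly higher in knockout than in wild-type males (8.63% against 9.33% for Mucl2, wild type first), within the spread of libraries. Neighbouring groups differed to unlike degrees. Knockout females and wild-type males, which no contrast compared, were apart in Mucl2 (187930 to 222740 against 75214 to 125210 CPM), Prol1 and Car6, and overlapped in Pip (4349 to 4959 against 2905 to 4972 CPM). The share of all genes apart between these groups was not counted. Wild-type and knockout males overlapped in Mucl2, Prol1, Car6 and Pip. Per kilobase of transcript, the level in wild-type females was 494379 CPM for Mucl2, 34445 for Prol1, 16362 for Pip and 14728 for Car6, where Car6 had more counts than Pip. Per kilobase Pip was also above Car6 in both male groups, and slightly below it in knockout females (7996 against 8155 CPM).

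To ask how these transcripts differ without TCs, the genotypes were compared within each sex. In females, Mucl2, Pip and Car6 were lower in the knockout: 3 of the 10 genes, where 19.3% of all genes tested were called lower. Mucl2 decreased by 1.01 ± 0.264 (SE) on the log2 scale with an adjusted p of 0.00995 in edgeR's quasi-likelihood test, Pip decreased by 1.03 ± 0.234 with an adjusted p of 0.00457, and Car6 decreased by 0.85 ± 0.235 with an adjusted p of 0.013. Prol1 differed by −0.54 ± 0.223 with an adjusted p of 0.0766 and did not pass. It passed in DESeq2 (adjusted p = 0.0098), with the authors' factors (0.0245), with scaling without the 20 most abundant genes (0.0494) and when wild-type male 2 was left out of the fit (0.0167). None of the 10 genes was called higher, and their median log2 difference was −0.14 beside 0.03 over all genes.

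The calls in females rest on the scaling. With library totals alone, the median of all genes moved to 0.53. None of the 10 genes passed there, where 40.2% of all genes were called in either direction. The differences were −0.49 for Mucl2, −0.51 for Pip, −0.33 for Car6 and −0.04 for Prol1. Relative to that median they were −1.01, −1.04, −0.85 and −0.56. With the test limited to genes of 10 or more counts in each library, Mucl2 had an adjusted p of 0.0938, while Pip and Car6 passed. Of all genes tested there, 42.4% were called in either direction. Knockout female 3, wild-type male 3 and knockout male 2 were also left out together. Pip alone of the 10 then passed, with an adjusted p of 0.0312, where 21% of all genes were called in either direction. Mucl2 then had a difference of −1.03 and an adjusted p of 0.175 and Car6 −0.92 and 0.068.

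Other acinar genes were lower in the same comparison. Of 15 acinar genes, 8 were lower and 0 higher in the knockout females, with a median log2 difference of −0.38; with library totals alone the counts were 2 lower and 2 higher and the median 0.13, below the 0.53 of all genes. Cldn10, a claudin of the acinar tight junction, decreased by 1.19 ± 0.194 with an adjusted p of 0.000766, and Xbp1, a transcription factor of secretory cells, by 1.00 ± 0.146 with an adjusted p of 0.000447 (edgeR). Of 17 other saliva protein genes, 4 passed the filter and 2 were lower: Lpo, salivary lactoperoxidase, decreased by 0.93 ± 0.196 with an adjusted p of 0.00317, and Agr2, a disulfide isomerase needed for mucin folding, by 0.98 ± 0.255 with an adjusted p of 0.00958. Genes of other cell types also differed between the female genotypes: 4 of 7 myoepithelial, 3 of 6 ductal, 3 of 6 macrophage and 3 of 6 adipocyte genes were lower, which with library totals alone became 0 of 7, 0 of 6 (and 1 ductal gene higher), 0 of 6 and 1 of 6. The summed macrophage genes ranged from 72.5 to 165 CPM in wild-type and 57.3 to 86.8 CPM in knockout females, and the adipocyte genes from 1.87 to 62.8 and from 0.407 to 3.96 CPM. Their part in the lower levels of Mucl2, Pip and Car6 was not tested. In whole glands, fewer acinar cells and less RNA per cell cannot be told apart.

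In males, none of the 10 genes passed in edgeR, where 0.235% of all genes did. At an unadjusted p below 0.05 there were 2 of 10, Car6 and Smgc, where 11.5% of all genes passed, and DESeq2 called 0 of the 5 for which it gave an adjusted p, where it called 2.31% of all genes. Mucl2 differed by −0.29 ± 0.261 on the log2 scale, Prol1 by −0.32 ± 0.223, Car6 by −0.55 ± 0.234 and Pip by −0.28 ± 0.232, with adjusted p-values of 0.731, 0.637, 0.381 and 0.71. Of the 15 acinar genes 0 passed, and their median difference in males was −0.44. When 1 library at a time was left out, none of the 10 genes passed in males, where 0.0703 to 3.42% of all genes did.

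Whether the genotype difference itself differed between the sexes was tested as an interaction. None of the 10 genes passed in edgeR, where 25.7% of all genes did. At an unadjusted p below 0.05 there were 3 of 10, Pip, Dcpp2 and Dcpp3, where 40.4% of all genes passed, and DESeq2 called 2 of 5, Mucl2 and Pip, where it called 31% of all genes. The difference was larger in females by −0.72 ± 0.37 for Mucl2 (adjusted p = 0.165) and by −0.76 ± 0.328 for Pip (adjusted p = 0.103); with library totals alone these values were −0.13 (adjusted p = 0.747) and −0.16 (adjusted p = 0.69). The values for Car6, −0.30 ± 0.33, and for Prol1, −0.22 ± 0.315, had adjusted p-values of 0.523 and 0.635, and both turned positive with library totals alone. Without wild-type female 1, Mucl2 and Pip passed with adjusted p-values of 0.0434 and 0.0335, and without wild-type male 2 Pip passed with 0.0398. Over all genes, 12.9 to 30.2% passed when 1 library at a time was left out. Without knockout female 3, wild-type male 3 and knockout male 2 together, none of the 10 genes passed, where 0.0164% of all genes did. A difference in females and none called in males is hence not shown to be a difference between the sexes for the 10 genes. Of 15 acinar genes, 3 were called lower in the interaction and 0 higher, but with library totals alone 0 lower and 4 higher. The median of the acinar genes was then 0.47, below the 0.64 of all genes, of which 32.7% were called in either direction. Of 6 adipocyte genes 6 were called lower, and of 6 macrophage genes 4, the latter 0 with library totals alone.

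The sexes were next compared within each genotype. Mucl2, Prol1, Car6, Pip and Smgc were lower in wild-type males than in wild-type females: 5 of the 10 genes, where 16% of all genes were called lower. Mucl2 decreased by 2.10 ± 0.272 on the log2 scale (adjusted p = 6.35e-05), Prol1 by 2.07 ± 0.232 (adjusted p = 1.91e-05), Car6 by 1.53 ± 0.238 (adjusted p = 0.00029) and Pip by 1.27 ± 0.235 (adjusted p = 0.00103). With library totals alone, the median of all genes stood at 0.96 and 69.4% of all genes were called in either direction. Mucl2, Prol1 and Car6 passed there, and Pip had a difference of −0.38 and an adjusted p of 0.101 (edgeR).

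In the knockout, 4 of the 10 genes were lower in males, where 20.3% of all genes were, and 1 was higher, Amy1, where 23.2% were. Mucl2 decreased by 1.39 ± 0.266 (adjusted p = 0.00113), Prol1 by 1.85 ± 0.23 (adjusted p = 4.38e-05) and Car6 by 1.23 ± 0.236 (adjusted p = 0.00115), while Pip differed by −0.51 ± 0.232 and did not pass (adjusted p = 0.0905). Pip passed with upper quartile scaling (adjusted p = 0.0238), in a fit to the knockouts alone (0.0282), in DESeq2 (0.0303) and without knockout male 1 (0.0439). With knockout female 3, wild-type male 3 and knockout male 2 left out together, Prol1 and Smgc were the genes of the 10 that passed here. Of all genes, 24.2% were called in either direction in that fit. Mucl2 and Car6 then had differences of −1.25 and −1.03 with adjusted p-values of 0.126 and 0.0556.

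**Figure D2:**
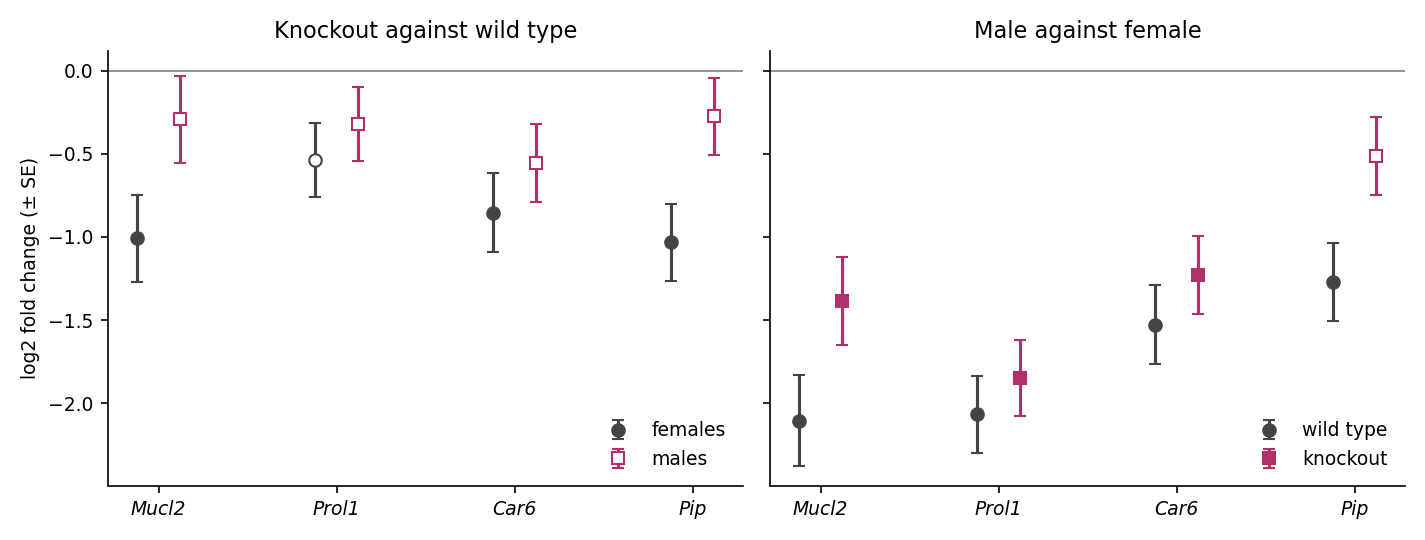
Log2 fold change (edgeR, ± SE) of Mucl2, Prol1, Car6 and Pip for knockout against wild type in each sex (left) and male against female in each genotype (right); filled symbols have an adjusted p below 0.05. All 16 points lie below 0, those of the knockout contrast in males between −0.55 and −0.28 and all open, and those of the sex contrast in wild type between −2.10 and −1.27 and all filled.

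Markers of the duct segment that is larger in males moved with sex as well. Of 15 granular convoluted tubule genes, 13 were higher and 1 lower in wild-type males, where 20.5% of all genes were called higher, and 14 higher and 1 lower in knockout males. Their sum ranged from 4931 to 10542 CPM over the female and from 82290 to 148553 CPM over the male libraries. Egf, epidermal growth factor, was higher by 6.55 ± 0.401 in wild-type males (adjusted p = 1.4e-07). Of the 15 acinar genes, 12 were lower and 1 higher in males of each genotype, with medians of −1.13 in wild type and −0.89 in knockout. With library totals alone these were 3 lower and 2 higher with a median of −0.25 in wild type, and 7 lower and 1 higher with a median of −0.61 in knockout. All genes then had medians of 0.96 in wild type and 0.25 in knockout, and 69.4 and 39% of them were called in either direction. Spdef, a transcription factor of secretory epithelia, decreased by 1.64 ± 0.177 in wild-type males (adjusted p = 1.39e-05). Myoepithelial genes were higher in males as well, 6 of 7 in wild type and 7 of 7 in knockout. Endothelial genes were lower, 4 of 4 in each genotype, but 0 of 4 with library totals alone. Of 6 adipocyte genes, 5 were lower in males of the wild type and 5 higher in those of the knockout. Of 6 macrophage genes, 5 were lower in wild-type males, a count that became 0 lower and 1 higher with library totals alone, and 2 were higher in knockout males. Of 6 ductal genes, 2 were higher in wild-type and 5 in knockout males, and of 4 red blood cell genes tested, 0 and 3. The part of the larger ducts or of these other cells in the lower saliva protein levels of males was not tested.

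Ratios of the estimated counts of a pair of transcripts in the same library do not depend on a factor per library, but they do on one that varies by gene, as in the authors' normalized counts. The log2 ratio of Mucl2 to Pip was 5.44 ± 0.037 (SD, n = 3) in wild-type females and 5.46 ± 0.028 in knockout females, and 4.61 ± 0.111 and 4.58 ± 0.083 in the males. It ranged from 5.39 to 5.49 over all females and from 4.49 to 4.70 over all males, without overlap between the sexes. In the authors' normalized counts the sexes overlapped in this ratio, at 4.84 to 5.25 in wild-type and 5.37 to 5.41 in knockout females and 4.58 to 4.92 over the males, and the female genotypes were apart. The log2 ratio of Prol1 to Pip was 1.80 to 2.62 in females against 1.07 to 1.40 in males, and the sexes were apart in the authors' normalized counts too, at 2.04 to 2.84 and 0.83 to 1.29.

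The log2 ratio of Mucl2 to Prol1 was 2.91 ± 0.046 in knockout females, between 2.87 and 2.96, against 3.35 ± 0.302 in wild-type females, between 3.06 and 3.66, and 3.37 ± 0.1 and 3.35 ± 0.203 in the wild-type and knockout males. The knockout females did not overlap any other group in this ratio of estimated counts, but in the authors' normalized counts they overlapped the wild-type females, at 2.53 to 2.94 against 2.62 to 2.96. The ratio of Mucl2 to Car6 was less even, with 4.16 ± 0.203 in wild-type and 4.03 ± 0.351 in knockout females and 3.59 ± 0.081 and 3.87 ± 0.041 in the males, and the 2 male groups did not overlap, at 3.53 to 3.68 and 3.83 to 3.91, nor in the authors' normalized counts, at 3.76 to 4.04 and 4.12 to 4.40. These ratios are descriptions and were not tested.

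**Figure D3:**
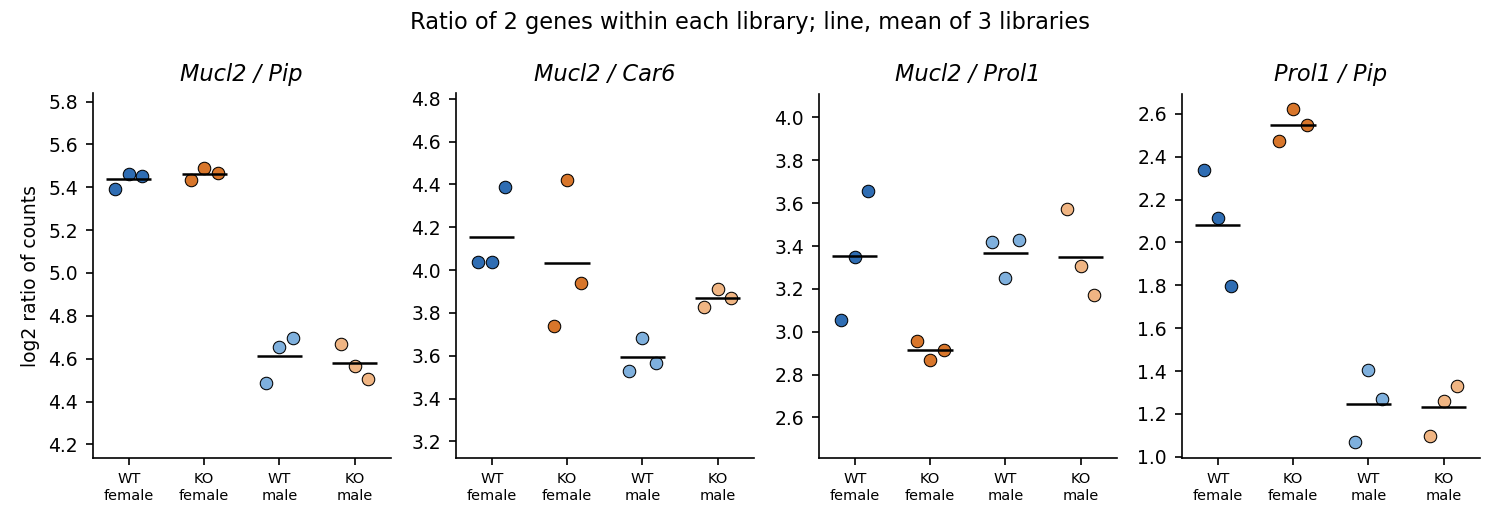
Log2 ratio of the estimated counts of 2 genes within each library, for Mucl2 over Pip, Mucl2 over Car6, Mucl2 over Prol1 and Prol1 over Pip; points are libraries, lines the means of 3, and the axes are of equal width but do not start at 0. Mucl2 over Pip falls into a female level near 5.4 and a male level near 4.6, and Mucl2 over Prol1 is lowest, at 2.91, in knockout females.

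The genes most like each abundant transcript were sought by Pearson's r of log2 CPM over the 12 libraries, which carry the same 4 groups, so that a shared sex difference alone gives a high r. For Mucl2 they were the secretoglobin genes Scgb2b27 (r = 0.996) and Scgb2b26 (0.995) and the bicarbonate transporter gene Slc4a7 (0.991). For Prol1 they were Sntb1 (0.988), Gk5 (0.987) and Gm14325 (0.987), for Car6 Aass (0.989), Scgb1b27 (0.989) and Phgdh (0.987), and for Pip Bcas2 (0.977), Rcn1 (0.977) and Tpd52l1 (0.974).

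Smgc, the submandibular gland protein C, was higher in females. Its count was 21282, 149266 and 139778 in the wild-type females and 56421, 94406 and 44864 in the knockout females. It was 1, 1 and 1428 in the wild-type males and 14, 1 and 4 in the knockout males. Every female library exceeded every male library, and the female genotypes overlapped, with a wild-type library at each end.

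As CPM, Smgc stood at 2468 ± 1785 (SD, n = 3) in wild-type and 1224 ± 323 in knockout females, which did not differ by the test (−1.01 ± 1.385 on the log2 scale, adjusted p = 0.6). Summed over libraries, its share of counts was 191 times higher in wild-type females than males (95% exact interval 181 to 201) and 10200 times higher in the knockout (6510 to 16900), intervals that cover counting error only. Of the 1430 counts in wild-type males, 1428 came from wild-type male 3, and without it the ratio in wild type was 95400 (26400 to 788000), over 2 male counts. The fitted differences between the sexes were −8.51 ± 1.906 in wild type (adjusted p = 0.00375) and −13.53 ± 2.394 in knockout (adjusted p = 0.000639), values that depend on how counts near 0 are fitted. Without wild-type male 3 the value in wild type was −17.24.

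The single wild-type male library with a Smgc count over 14 was also the one with the highest count of Muc19, the mucin of sublingual mucous cells whose gene begins at the same base. In wild-type male 3 Muc19 was at 518166 counts, and Smgc came to 0.276% of it. In knockout male 1 it came to 0.219%, over 14 Smgc and 6388 Muc19 counts, and the other 4 male libraries had at most 4 Smgc counts. In females Smgc was far from a fixed fraction of Muc19: it came to 19.6% of Muc19 in knockout female 3, where Muc19 was at 228637 counts, and exceeded Muc19 in the other 5. Of the 31-base words of Smgc, 3.92% occur in Muc19, and the assignment of such reads between both genes was not tested. Among the genes whose levels were most like Smgc were Creb3l4 (r = 0.979) and Dcdc2a (0.976).

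The Dcpp genes, named for the demilune cells and the parotid, were near 0 in most libraries and high in a few. Dcpp2 was counted 3, 1116 and 0 times in the wild-type females, 0, 1 and 19769 times in the knockout females, 6, 3 and 50563 times in the wild-type males and 539, 126 and 45 times in the knockout males. The upper limit that goes with no count is 3 counts, which is 0.0489 CPM by library total in wild-type female 3 and 0.0619 CPM in knockout female 1. Dcpp3 followed it, with 6, 1264 and 1, then 11, 10 and 21797, then 2, 25 and 52586, then 528, 378 and 40 counts in the same order. High libraries were present in both genotypes and both sexes, and each group overlapped the others.

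Dcpp1 was high in the same libraries and in 1 more. Its count was 1, 531 and 10 in the wild-type females, 57, 16 and 5199 in the knockout females, 5, 183 and 13547 in the wild-type males and 149, 3681 and 9 in the knockout males. Among the 5 libraries with the highest Dcpp sums, Dcpp1 made up 11.1% of the sum in knockout female 3, 11.6% in wild-type male 3, 12.3% in knockout male 1 and 18.2% in wild-type female 2, but 88.0% in knockout male 2. As the copies share most of their 31-base words, this split is as the authors' software estimated it.

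Muc19 moved with the first 4 of these libraries. Its count was 518166 in wild-type male 3, 228637 in knockout female 3, 7767 in wild-type female 2 and 6388 in knockout male 1, and at most 731 in the other libraries. The summed Dcpp counts came to 0.205 of Muc19 in knockout female 3, 0.225 in wild-type male 3, 0.19 in knockout male 1 and 0.375 in wild-type female 2, and to 37.7 in knockout male 2, where Muc19 was at 111 counts. Whether sublingual tissue was present in these samples was not tested.

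Bpifa2, the parotid secretory protein gene at chr2:153850148-153857999, and Amy1, the salivary amylase gene at chr3:113349359-113400348, were highest in knockout male 2. Bpifa2 was counted 53, 1046 and 275 times in the wild-type females, 54, 45 and 2611 times in the knockout females, 148, 1813 and 35484 times in the wild-type males and 115, 125303 and 6 times in the knockout males. It was therefore high in wild-type male 3 as well, and low in at least 1 library of each group. Amy1 was counted 199, 247 and 212 times in the wild-type females, 255, 421 and 259 times in the knockout females, 751, 1602 and 8714 times in the wild-type males and 746, 56718 and 796 times in the knockout males. Unlike Bpifa2, Amy1 was higher in every male than in every female library. Both are known from the parotid gland, and whether parotid tissue was present in these samples was not tested.

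Of the other amylase genes, Amy2a5 had at most 2 counts and Amy2b at most 1 in a library, and the rest were not examined. As CPM, Amy1 lay between 3.87 and 7.06 in all females, at 9.99, 22.8 and 124 in the wild-type males and at 12, 919 and 12.5 in the knockout males. In the knockout it was called higher in males (5.73 ± 1.529 on the log2 scale, adjusted p = 0.00881), a call that knockout male 2 decides: without it the difference was 1.06, with an adjusted p of 0.28. In wild type the difference was 3.40 ± 1.388 with an adjusted p of 0.0728, and it passed with library totals alone (adjusted p = 0.0152), without a filter on low counts (0.00599), in a fit to wild type alone (0.0144) and when any 1 knockout male was left out (0.00322 without knockout male 2). It also passed without knockout female 3, wild-type male 3 and knockout male 2, at 1.72 with an adjusted p of 0.00311 (edgeR). Of all genes, 69.4% were called in either direction with library totals alone, and 23.2% without those libraries. Of the 31-base words of Amy1, 20.1% occur in other genes, most of them in Rnpc3, whose annotated span overlaps its own.

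None of Dcpp1, Dcpp2, Dcpp3 and Bpifa2 passed in any of the 5 contrasts, with adjusted p-values from 0.105 to 0.841 in edgeR. Without a filter on low counts, Dcpp2 (adjusted p = 0.0152) and Dcpp3 (0.0153) passed in the interaction and Bpifa2 (0.0311) between the sexes in the knockout. Fold changes of these genes between groups are not given, because 1 library sets the mean of a group. The unevenness was large beside other genes: the highest library exceeded the median library 1830-fold for Dcpp2, 1530-fold for Dcpp3, 445-fold for Bpifa2, 109-fold for Dcpp1 and 108-fold for Amy1, against a median of 1.54-fold over all genes tested and a ratio above 100 in 0.0727% of them. It was 16.8-fold for Smgc, 3.43-fold for Mucl2 and 2.28 to 2.68-fold for Prol1, Car6 and Pip.

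**Figure D4:**
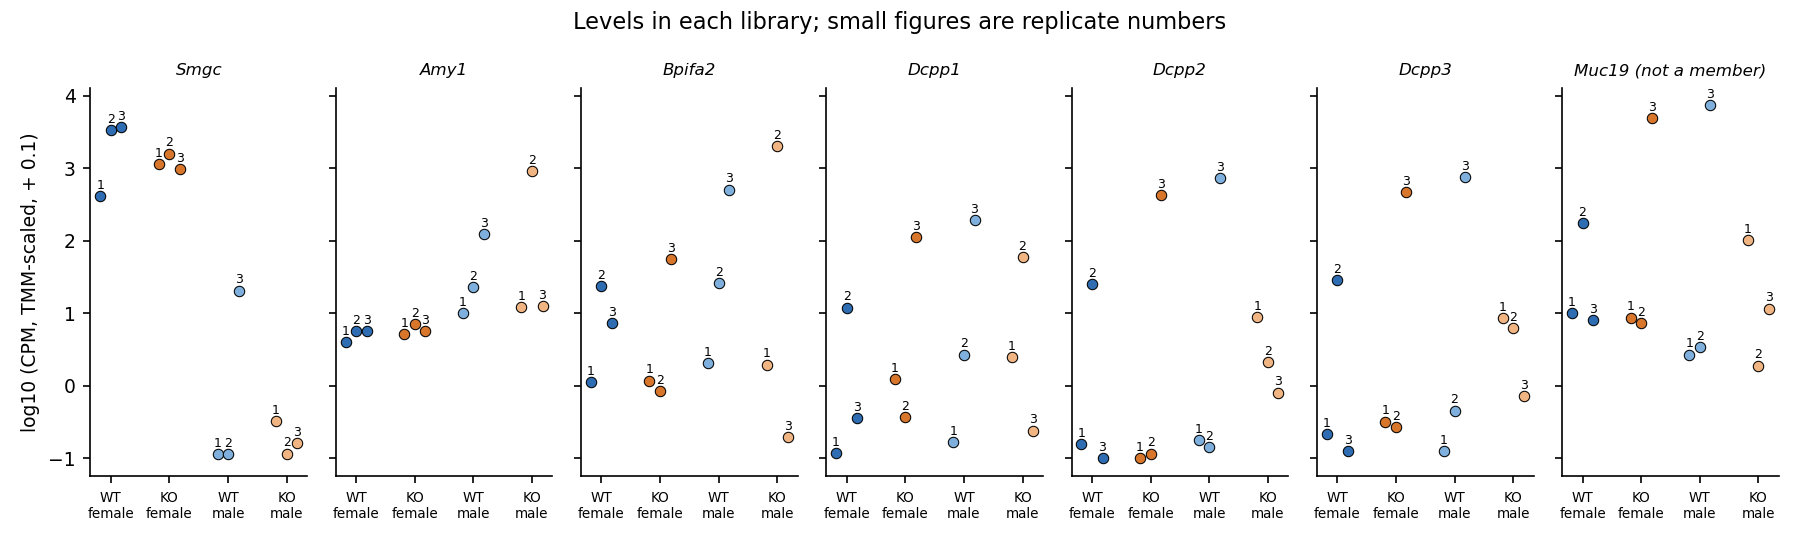
Level of Smgc, Amy1, Bpifa2, Dcpp1, Dcpp2, Dcpp3 and, for reference, Muc19 in each library, as log10 of TMM-scaled CPM plus 0.1; the small numbers are the replicates within each group. Smgc splits by sex, while Dcpp2, Dcpp3 and Muc19 are highest in wild-type male 3 and knockout female 3, and Bpifa2 and Amy1 in knockout male 2.

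By likeness of levels, the uneven genes fell beside each other. Dcpp2 and Dcpp3 had an r of 0.978 over the 12 libraries, and Dcpp1 and Dcpp3 one of 0.9, over copies that share reads. Dcpp3 was next most like Muc19 (0.884), Dcpp2 like Gm2163 (0.916) and A2ml1 (0.9), and Dcpp1 like Bpifa2 (0.849) and Gnaz (0.826). Bpifa2 was most like B4galnt3 (0.879), the secreted nuclease gene Dnase1 (0.87) and the cystatin gene Cst5 (0.858), and Amy1 like Cst5 (0.946), the chitinase gene Chia1 (0.918) and Dnase1 (0.912). A few high libraries can carry such an r.

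Of the other saliva protein genes, few had any sizeable count. Bpifa1, Bpifb1, Bpifb2 and Tff2 were at 0 in all 12 libraries, and Dmbt1, Prh1 and Prp2 had at most 5 counts in any. Mucl1, the neighbour of Mucl2 in the mucin-like family, had 12 to 87 counts in each library.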

How the data were processed

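Bulk RNA-sequencing of 12 SMGs was used. The authors assigned reads to Gencode M35 transcripts (GRCm39) with Salmon 1.10.1 and deposited estimated counts per gene, of which 78.7% are whole numbers. A second deposited table gives the same genes as a normalized signal. The authors' divisor varies by gene and by library, how it was made is not given in the sources used here, and the table served for alternatives only. Groups came from the labels. Estimated counts were rounded and analysed with edgeR 4.0.16 in R 4.3.3: TMM scaling, filterByExpr, a quasi-likelihood fit of 4 group means to all 12 libraries, and Benjamini-Hochberg adjustment over 17893 genes in each of 5 contrasts, at a threshold of 0.05. SE was derived from the fold change and the F statistic. For likeness, log2 CPM used a prior count of 2. The fit was tested on simulated data, in which 200 of 17893 genes had a 4-fold change in females. Of these, 99% were recovered, with 4.35% of calls false and 0 calls in males. The share of false calls where 36.9% of all genes are called, as in the females here, was not tested. Its dependence on the scaling was not tested either.

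The 10 genes and the lists of other genes were chosen with earlier results of these data known. Named genes are the 10, up to 4 genes per list with the smallest adjusted p in a contrast, the 3 genes most like each of the 10, and copies or overlapping genes, of which some are not reported here; genes listed at or near 0 were named after their counts were seen. Symbols and positions were matched by identifier to Gencode M39, where 55563 were found, with 7 of the 10 genes in the same version. Replicates are separate mice by the labels. Alternatives were 4 other scalings, the authors' factors, 2 other filters, a fit within each sex or genotype, DESeq2 1.42.0, a replicate block, the Dcpp genes summed, each library left out, and, added after seeing the data, 3 libraries left out together and within-library ratios from the authors' normalized counts. Tables, sequences and figures used Python 3.11.15, pandas 2.3.3, Biopython 1.88 and matplotlib 3.10.9.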

Additional observations from a re-analysis of the deposited data

How the results depend on the processing

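Of 591 refitted log2 differences, covering 25 reported values and 24 alternatives, 558 kept their direction and side of the threshold, 11 fell short of it, 20 passed it, and 2 changed sign: with library totals alone, the interaction was 0.31 for Car6 and 0.35 for Prol1. The refitted values cover Mucl2, Prol1, Car6 and Pip in each contrast, Smgc between the sexes and between the female genotypes, and Amy1 between the sexes. Dcpp1, Dcpp2, Dcpp3 and Bpifa2 are not among them, nor is Smgc in males or in the interaction. The number of the 10 genes called in females fell from 3 to 0 with library totals alone and to 1 without knockout female 3, wild-type male 3 and knockout male 2, which also brought the number for the sexes in the knockout from 5 to 2. Of all genes, 36.9% were called in females, 40.2% with library totals alone and 21% without those libraries. For the sexes in the knockout the share of all genes went from 43.5 to 24.2% without them. With the test limited to genes of 10 or more counts in each library, 2 of the 5 left passed in females, without Mucl2. Of all genes tested there, 42.4% were called. Without a filter on low counts, 1 gene passed in males (Smgc), where 1.26% of all genes did. In the interaction 3 passed (Smgc, Dcpp2 and Dcpp3), where 14.6% of all genes did. Amy1 was added between the sexes in wild type and Bpifa2 in the knockout, for 6 calls each. Of all genes, 20.2 and 24.1% were called there. DESeq2 called 2 in the interaction, where it called 31% of all genes. Leaving out 1 library at a time gave 0 to 2 calls in the interaction, where 12.9 to 30.2% of all genes were called. The replicate block, the number of a mouse as an added factor, gave 3, 0, 0, 5 and 5 calls in the 5 contrasts, as without it. With the block, 35.5, 0.246, 24.3, 35.2 and 42.4% of all genes were called. Replicate numbers did not pair the mice, with correlations of deviations from −0.13 to 0.09 between genotypes. The summed share of the 10 genes moved with its denominator: without Rn7s1 it was 48.8, 38.3, 18.1 and 15.2% in wild-type females, knockout females, wild-type males and knockout males, without the 20 most abundant other genes 60.3, 48.5, 26.1 and 22.9%, and in the authors' normalized counts 39.2, 29.0, 10.2 and 10.9%, where the male genotypes changed order. Causes were not tested. DESeq2 gave no adjusted p for 5 of the genes. Dcpp2 had 10 or more counts in 6 libraries only and was near 0 in the others. These low counts did not follow depth: Dcpp2 had 3 counts in wild-type male 2 (67881910 in total) and 19769 in knockout female 3 (47031920 in total).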
